A study of Homo sapiens with 9 samples.

Results

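The BCL2 family survival and death genes were followed here in melanoma cells whose PHF8 gene was targeted with CRISPR-Cas9. The members were the genes of the normalized count table named BCL2, BCL2L1, BCL2L11, MCL1, BCL2A1, BAK1, BID, BMF, BIK and BAD, and all 10 were found among 57736 genes. RNA-seq was carried out on SKMEL-147, an established human melanoma cell line, in 9 samples. All samples carried Cas9 and a guide from a lentiviral vector with GFP. The 3 sgScr samples received a scrambled guide, the 3 sgPHF8-1 samples guide 1 to PHF8, and the 3 sgPHF8-3 samples guide 3 to PHF8, with replicates A, B and C in each group. The cells were transduced pools, not single clones, and the deposited gene counts do not show which share of cells was edited. PHF8 is a histone lysine demethylase, and the comparison asks which genes differed in RNA level between cells with a PHF8 guide and cells with the scrambled guide.

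BCL2 family proteins decide whether the outer mitochondrial membrane is opened during apoptosis. The pro-survival proteins hold back the effectors BAX and BAK1, and the BH3-only proteins sense stress and either neutralise the pro-survival proteins or activate the effectors. Melanoma cells are known for their reliance on pro-survival proteins such as MCL1, and BCL2A1 is a known target of the lineage factor MITF.

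The PHF8 guides define the groups and are therefore printed first, with the adjacent PAM, the motif Cas9 needs beside its target, in capitals. Each matched hg19 exactly at 1 place.
sgPHF8-1: gtcacactcgatcatgaagcGGG
sgPHF8-3: tcctcctgagcctaaacaagAGG
Guide 1 matched the plus strand of chrX:54069090-54069109, in coding exon 2 of the canonical PHF8 transcript, and lay in the coding sequence of 13 of the 22 annotated transcripts. Guide 3 matched the minus strand of chrX:53966772-53966791, in coding exon 21, and lay in the coding sequence of 4 of the 22. The 22 are all annotated transcripts, whether coding or not, so these are not shares of the protein forms. The scrambled guide had 0 exact matches in hg19.

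The samples held 19838142, 19750589 and 19446946 gene counts in sgScr, 18807433, 17582430 and 17921613 in sgPHF8-1, and 19019118, 18072733 and 17366120 in sgPHF8-3. Replicate B of sgPHF8-1 stood apart. It had 22427 genes with a count, against 23035 to 23229 in the others, and it was at 19.3 on the second principal component of log2 CPM, where the other 8 samples lay between -15.2 and 5.68. The member calls that change without it are given with and without it. No pair of replicates differed by less than the counting noise, with a mean chi-square per gene between 1.31 and 3.86, so none was treated as the same library deposited again.

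The labelled line was checked against markers. SOX10, the neural crest and melanocyte factor, was present at 2369 to 2830.4 normalized counts, and MITF at 200.5 to 287.5. The pigment genes MLANA and TYR were at 0 in all 9 samples, and PMEL was at 11.2 or below, so the differentiated melanocyte program was absent. The 5 genes of undifferentiated melanoma were all present, with VIM between 145430 and 159721, AXL between 27146 and 29594, NGFR between 6999 and 11971, EGFR between 1849.7 and 2243, and SOX9 between 260.1 and 358. Some of these markers moved with the groups. NGFR had 11455, 11971 and 11653 in sgScr, 6999, 7311 and 7286 in sgPHF8-1, and 9947, 9710.5 and 9052 in sgPHF8-3, and the 3 groups did not overlap. It fell with both guides (log2 fold change -0.70 and -0.29, edgeR adjusted p = 2.74e-21 and 1.81e-09), as did SOX10 (-0.18 and -0.11, edgeR adjusted p = 1.74e-05 and 0.00831). The SOX10 call with guide 3 was lost without replicate A of sgScr (edgeR adjusted p = 0.0631). Others of the undifferentiated list were higher, namely VIM with both guides (0.089 and 0.088, edgeR adjusted p = 0.0165 and 0.0265), SOX9 with guide 1 (0.25, edgeR adjusted p = 0.00926) and EGFR with guide 3 (0.10, edgeR adjusted p = 0.0436). Each of these calls was lost without at least 1 sample, at up to 0.0800 for VIM with guide 1 (without replicate C of sgScr), 0.129 for VIM with guide 3 (without A of sgPHF8-3), 0.0934 for SOX9 (without C of sgScr) and 0.308 for EGFR (without C of sgPHF8-3). In that list of 5, 2 genes were higher and 1 was lower with each guide, against 31.2% (guide 1) and 20.0% (guide 3) of all genes called. Summed over each list, the 4 keratinocyte markers came to 13.4 to 44.0 normalized counts, nearly all of it KRT14, with KRT1 at 0. The 3 leukocyte markers came to 2.96 to 13.0, with CD3E at 0, and the 2 endothelial markers that were matched came to 0.929 to 9.22. KRT14 was lower with both guides, at 37.2, 44.0 and 38.9 in sgScr, 15.8, 27.0 and 13.4 in sgPHF8-1 and 18.6, 28.7 and 16.9 in sgPHF8-3. The part of these marker differences in the results below was not tested.

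PHF8 itself was examined in every sample before the family. Normalized counts are the authors' gene counts divided by a size factor per sample. PHF8 had 655, 606 and 634 in sgScr, 564, 571 and 565 in sgPHF8-1, and 399.8, 387 and 434.5 in sgPHF8-3. Both guide groups lay wholly below sgScr, and the guide 3 samples lay wholly below the guide 1 samples. With edgeR's quasi-likelihood test, adjusted by Benjamini-Hochberg over the 14614 genes tested, PHF8 fell by 0.63 on the log2 scale with guide 3 (SE 0.058, adjusted p = 2.32e-11) and by 0.16 with guide 1 (SE 0.055, adjusted p = 0.0253). The guides differed from each other in PHF8 (log2 fold change -0.48, SE 0.060, edgeR adjusted p = 1.73e-07). The guide 1 call was lost without replicate A of sgScr (edgeR adjusted p = 0.119), without replicate C of sgScr (0.0692), without replicate A of sgPHF8-1 (0.0700), without replicate C of sgPHF8-1 (0.0539) and with DESeq2 (0.126). A cut in a coding exon can end the protein without lowering the RNA, so these RNA levels do not measure the knockout, which the methods assessed at the protein level.

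A gene was called where the adjusted p of edgeR's quasi-likelihood test was below 0.05. Of the 10 members, 9 passed the filter on low counts and BIK did not. With guide 1, 4 of the 9 tested members were called, against 31.2% of all genes tested. Of these, 3 were higher (MCL1, BAK1 and BID; 15.5% of all genes) and 1 was lower (BMF; 15.7% of all genes). With guide 3, 3 of 9 were called, against 20.0% of all genes, with 2 higher (BCL2 and BID; 9.89% of all genes) and 1 lower (BMF; 10.1% of all genes). Taking the mean of both guides against sgScr, 5 of 9 were called (30.0% of all genes), 4 of them higher (BCL2, MCL1, BAK1 and BID; 15.1% of all genes) and BMF lower (14.9% of all genes). Without replicate C of sgScr that count was 3, because the calls of BCL2 and BAK1 were lost. Between guide 3 and guide 1, 0 of 9 members were called by edgeR, where 11.2% of all genes were (6.06% higher and 5.11% lower). DESeq2 and limma also called 0 there, and 1 member had an unadjusted p below 0.05. These comparisons share their samples: both guides are set against the same 3 sgScr samples.

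The median log2 fold change of the 9 tested members was 0.091 with guide 1 and 0.069 with guide 3, and that of all genes was 0.00028 and -0.00076. The median absolute log2 fold change of the members was 0.19 with guide 1 and 0.18 with guide 3, against 0.13 and 0.10 for all genes. Apart from BMF, BID and the low-count BCL2A1, no tested member differed from sgScr by more than 0.25 on the log2 scale with either guide.

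**Figure D1:**
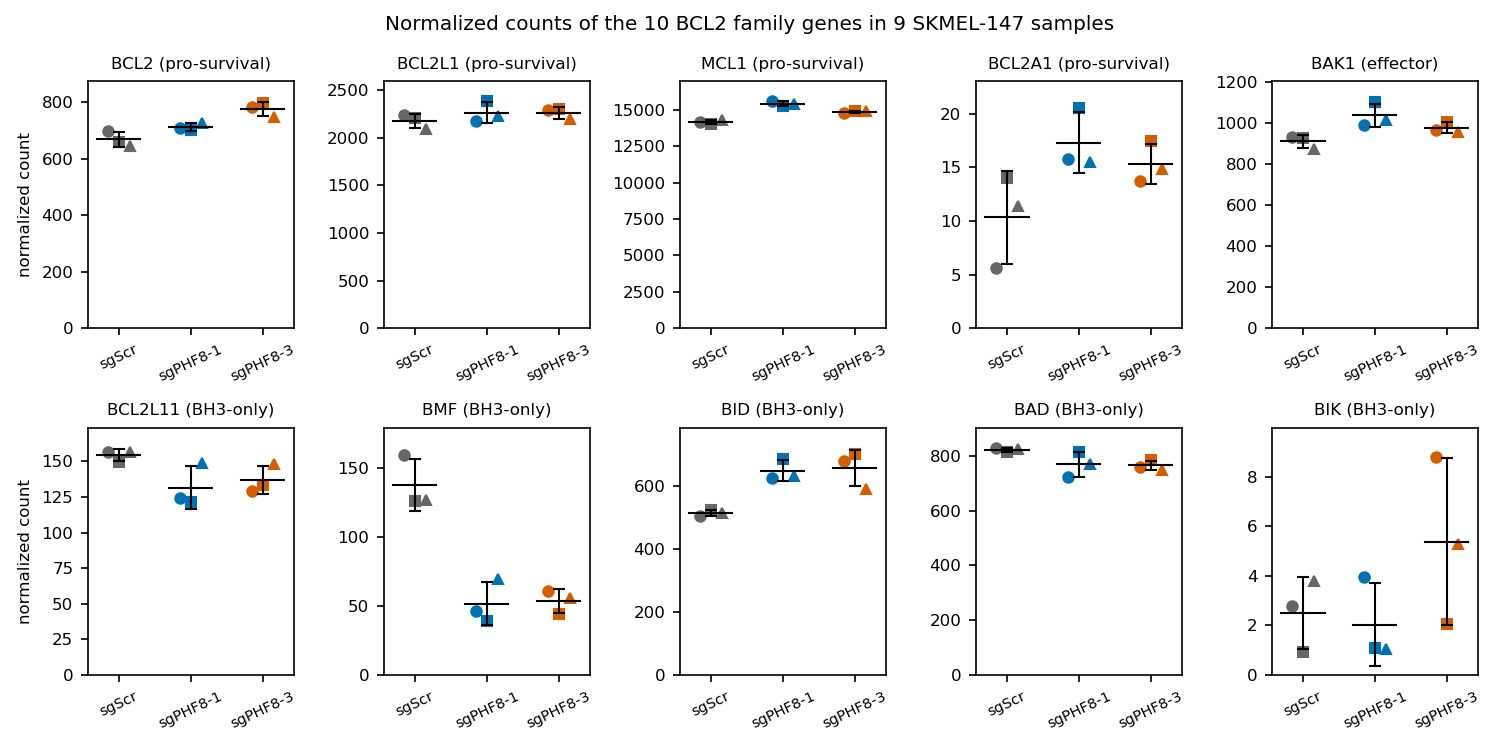
Normalized counts (vertical axes, from 0) of the 10 BCL2 family genes in the 3 sgScr, 3 sgPHF8-1 and 3 sgPHF8-3 samples, with circles, squares and triangles for replicates A, B and C and bars for the mean and the SD (n = 3). BMF lies at 38.9 to 69.2 in the 6 PHF8 guide samples and at 126 to 159.8 in sgScr, and BID at 591 to 701 and 505 to 524.

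The pro-survival genes came first. MCL1, a short-lived guardian that binds BAK1 and BIM, had 14195, 14037 and 14294.5 normalized counts in sgScr, 15613, 15287 and 15376 in sgPHF8-1, and 14793, 14929 and 14892 in sgPHF8-3. The 3 groups did not overlap, with sgScr lowest and guide 1 highest, although the whole span was small. MCL1 was 1.09-fold higher with guide 1 (log2 fold change 0.12, SE 0.028, edgeR adjusted p = 0.000644). With guide 3 the log2 fold change of MCL1 was 0.069 (SE 0.028, edgeR adjusted p = 0.0749). That difference was called with DESeq2 (adjusted p = 0.0319), with only the groups compared in the edgeR fit (adjusted p = 0.0366) and without replicate B of sgPHF8-1 (edgeR adjusted p = 0.0188). Over all the alternatives tried, its adjusted p ranged from 0.0188 to 0.283.

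BCL2, the founding guardian of the family, had 699, 659 and 646 normalized counts in sgScr, 706, 699.9 and 727.5 in sgPHF8-1, and 781, 796 and 747 in sgPHF8-3. Every guide 3 sample lay above every guide 1 sample, and the lowest guide 1 sample lay just above the highest sgScr sample. BCL2 was 1.16-fold higher with guide 3 (log2 fold change 0.21, SE 0.050, edgeR adjusted p = 0.00143), in 3 of 3 samples. With guide 1 its log2 fold change was 0.091 (SE 0.051, edgeR adjusted p = 0.179). The difference between the guides in BCL2 was 0.12 (95% interval 0.023 to 0.22) and was not called by edgeR (adjusted p = 0.106).

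BCL2L1, which encodes BCL-XL, had 2240.4, 2204 and 2097 normalized counts in sgScr, 2177, 2386 and 2229.9 in sgPHF8-1, and 2293, 2302 and 2193.5 in sgPHF8-3. The groups overlapped. Its log2 fold change was 0.053 with each guide, with 95% intervals of -0.019 to 0.12 for guide 1 and -0.018 to 0.13 for guide 3, and it was not called (edgeR adjusted p = 0.275 and 0.314). BCL2A1, the guardian BFL1, was near the detection limit with 6, 15 and 12 raw counts in sgScr, 16, 19 and 15 in sgPHF8-1, and 14, 17 and 14 in sgPHF8-3. The spread of sgScr was wide because replicate A had only 6 counts, and the guide 3 samples overlapped sgScr. The log2 fold change of BCL2A1 was 0.73 with guide 1 (95% interval 0.059 to 1.40) and 0.56 with guide 3 (-0.13 to 1.25), and neither was called by edgeR (adjusted p = 0.0924 and 0.264). Without replicate A of sgScr the BCL2A1 values were 0.43 and 0.26, and over the alternatives they ran from 0.43 to 1.02 with guide 1 and from 0.26 to 0.85 with guide 3.

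BAK1 was the effector among the members, a pore-forming protein of the mitochondrial outer membrane. It had 932, 928 and 875 normalized counts in sgScr, 994, 1103 and 1017 in sgPHF8-1, and 968, 1009 and 957 in sgPHF8-3. Both guide groups lay above sgScr and overlapped each other. BAK1 was 1.14-fold higher with guide 1 (log2 fold change 0.19, SE 0.046, edgeR adjusted p = 0.00143), while with guide 3 its log2 fold change was 0.10 (SE 0.046, edgeR adjusted p = 0.121). The difference between the guides was -0.085 (95% interval -0.18 to 0.0073) and was not called.

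Among the BH3-only genes, BMF had the widest difference of all tested members. BMF, whose protein is held at the cytoskeleton until it is released to bind pro-survival proteins, had 159.8, 126 and 127 normalized counts in sgScr, 46.4, 38.9 and 69.2 in sgPHF8-1, and 60.8, 44.1 and 56.0 in sgPHF8-3. All 6 guide samples lay below all 3 sgScr samples, and the guides overlapped each other. BMF fell to 0.375 times the sgScr level with guide 1 (log2 fold change -1.42, SE 0.16, edgeR adjusted p = 5.92e-09) and to 0.390 times with guide 3 (-1.36, SE 0.15, edgeR adjusted p = 2.77e-08). The difference between the guides in BMF was 0.056 (95% interval -0.34 to 0.45). Both calls held in all 17 alternatives, with log2 fold changes from -1.69 to -1.25 for guide 1 and from -1.46 to -1.24 for guide 3. In RNA from a pool of cells, fewer cells with BMF RNA and less BMF RNA per cell cannot be told apart.

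BID, the BH3-only protein that caspase-8 cleaves to link death receptors to the mitochondria, had 505, 524 and 515 normalized counts in sgScr, 626, 687 and 630.3 in sgPHF8-1, and 679, 701 and 591 in sgPHF8-3. All 6 guide samples lay above sgScr, and replicate C was the lowest of the guide 3 samples. BID was 1.26-fold higher with guide 1 (log2 fold change 0.33, SE 0.059, edgeR adjusted p = 1.90e-05) and 1.28-fold higher with guide 3 (0.35, SE 0.058, edgeR adjusted p = 1.38e-05). The difference between the guides in BID was 0.023 (95% interval -0.093 to 0.14). Both calls held in all 17 alternatives.

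BCL2L11, which encodes BIM, a BH3-only activator that binds every pro-survival protein, had 157, 149.8 and 157 normalized counts in sgScr, 124.5, 121 and 149 in sgPHF8-1, and 129, 133 and 148 in sgPHF8-3. The guide samples all lay below sgScr, with replicate C of each guide group only just below the lowest sgScr sample. The log2 fold change was -0.23 with guide 1 (SE 0.10, edgeR adjusted p = 0.0892) and -0.18 with guide 3 (SE 0.10, edgeR adjusted p = 0.243), so neither was called. Without replicate C of sgPHF8-1 the guide 1 value was -0.33 and was called (edgeR adjusted p = 0.0280, within a range of 0.0280 to 0.277 over the alternatives). The mean of both guides for BCL2L11, at -0.20 with all samples (edgeR adjusted p = 0.0790), was then -0.25 and called (edgeR adjusted p = 0.0312).

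BAD, a BH3-only protein controlled by survival-kinase phosphorylation, had 829.8, 816 and 825 normalized counts in sgScr, 725, 816 and 769.8 in sgPHF8-1, and 761, 785 and 751 in sgPHF8-3. Replicate B of sgPHF8-1 was level with sgScr, and the other 5 guide samples lay below it. The log2 fold change of BAD was -0.098 with guide 1 (SE 0.048, edgeR adjusted p = 0.123) and -0.11 with guide 3 (SE 0.048, edgeR adjusted p = 0.124). Without replicate B of sgPHF8-1 the guide 1 value was -0.14 and was called (edgeR adjusted p = 0.0406, within a range of 0.0406 to 0.492). The mean of both guides for BAD, at -0.10 with all samples (edgeR adjusted p = 0.0592), was then -0.12 and called as well (edgeR adjusted p = 0.0204). It was also called with no normalization factors (-0.11, edgeR adjusted p = 0.0337). BIK, a BH3-only protein of the endoplasmic reticulum, had 3, 1 and 4 raw counts in sgScr, 4, 1 and 1 in sgPHF8-1, and 9, 2 and 5 in sgPHF8-3. The groups overlapped at this depth and no difference was detectable.

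**Figure D2:**
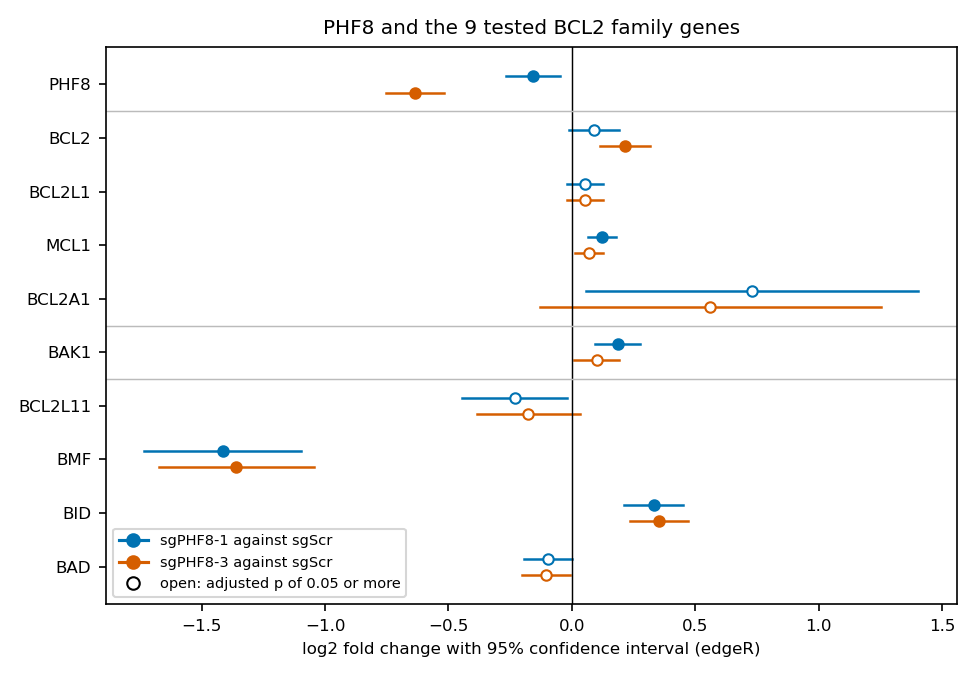
Log2 fold change against sgScr (horizontal axis) with its 95% confidence interval for PHF8 and the 9 tested members, guide 1 in blue, guide 3 in orange and filled points for an edgeR adjusted p below 0.05. BMF lies at -1.42 and -1.36 and BID at 0.33 and 0.35, and PHF8 is the gene where the intervals of the guides are apart.

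Counts of a few members may be affected by a neighbour that shares exon sequence with them. In the annotation, exons of BCL2L1 share 1735 bases (41.3% of its exon sequence) with ABALON on the other strand, BAD 404 bases (23.7%) with GPR137, BCL2L11 727 bases (10.8%) with MIR4435-2HG, BMF 461 bases (8.46%) with BMF-AS1 and BAK1 91 bases (4.11%) with GGNBP1. MCL1 shares 328 bases (5.27%) with ADAMTSL4-AS1 on the same strand and 43 bases with ADAMTSL4 on the other. Whether the counting used strand was not given in the sources used here. Reads in the shared bases may therefore be mixed with those of the partners, or may be left uncounted, which would lower the members' levels.

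Levels were compared between members only after division by transcript length. On the scale of normalized counts per kilobase of the canonical transcript, the sgScr means were 3589 ± 32.9 (SD, n = 3) for MCL1, 886 ± 7.81 for BAD, 847 ± 28.9 for BCL2L1, 420.2 ± 14.6 for BAK1, 236 ± 4.54 for BID and 97.1 ± 4.01 for BCL2. Lower levels followed, at 30.3 ± 0.797 for BCL2L11, 29.4 ± 4.06 for BMF, 13.3 ± 5.55 for BCL2A1 and 2.64 ± 1.53 for BIK. BCL2L11 and BMF did not differ beyond their spread in sgScr. BAD and BCL2L1 stood close, and their order turned when the length of all annotated exons was used (482 for BAD and 519.6 for BCL2L1, again per kilobase). The order of BCL2L11 and BMF turned as well (22.9 and 25.3). That length also lowered MCL1 to 2278, BID to 116 and BCL2 to 52.9, and with the 2 other lengths tried, 13 levels moved by more than the SD of sgScr and 7 did not.
In sgPHF8-1 and sgPHF8-3 the level of BMF was 11.0 ± 3.36 and 11.4 ± 1.83 per kilobase (SD, n = 3), below BCL2L11 at 25.8 ± 2.96 and 26.9 ± 1.93. Shares were taken within the summed length-scaled level of the 4 pro-survival members. Other pro-survival genes, such as BCL2L2 (792 to 867.5 normalized counts), were not members and are not in this sum. MCL1 made up 78.9% ± 0.637 of it in sgScr, 79.5% ± 0.883 in sgPHF8-1 and 78.8% ± 0.473 in sgPHF8-3 (SD, n = 3). These differences were within the spread. BCL2 made up 2.13% ± 0.0790, 2.10% ± 0.0523 and 2.36% ± 0.0626 in the same groups, and its guide 3 share lay above the others by more than these SDs.

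**Figure D3:**
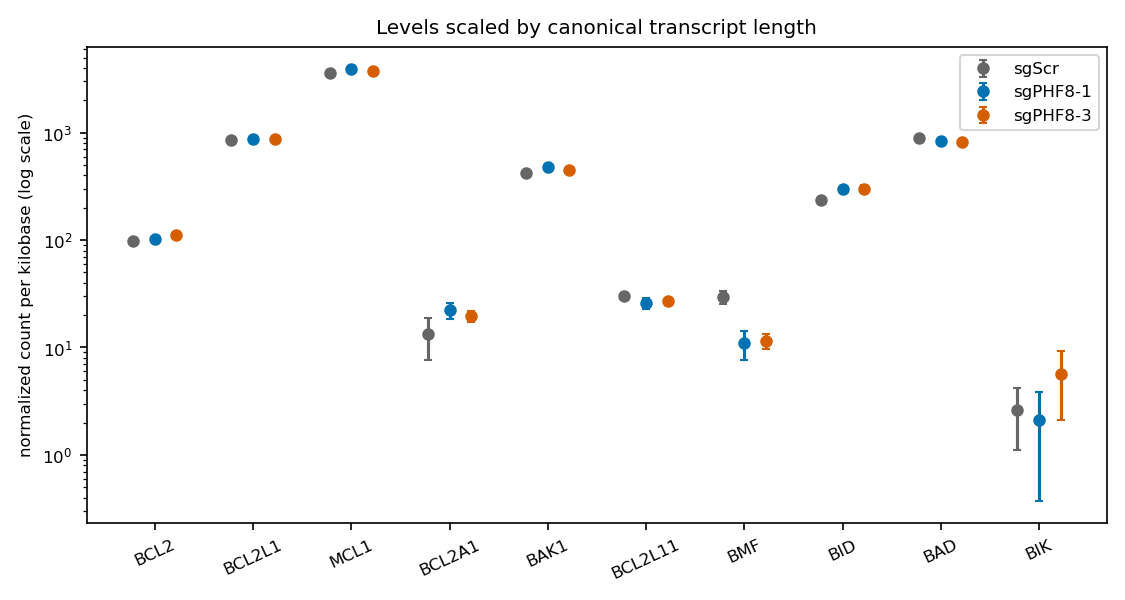
Mean normalized count per kilobase of the canonical transcript (log axis) of each member in sgScr (grey), sgPHF8-1 (blue) and sgPHF8-3 (orange), bars showing the SD (n = 3). MCL1 is the highest and BIK the lowest in all 3 groups, and BMF lies further below BCL2L11 in the guide groups than in sgScr.

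BMF and BID were the members called with both guides, and their promoters are printed for that reason. RefSeq promoter sequence was matched for 8 of the 10 members. The 250 bases before each start are given with CG dinucleotides in capitals (GRCh38.p14, minus strand for both genes). A single start was used per gene, here and below, and other starts were not examined.
BMF, chr15:40108880-40109129: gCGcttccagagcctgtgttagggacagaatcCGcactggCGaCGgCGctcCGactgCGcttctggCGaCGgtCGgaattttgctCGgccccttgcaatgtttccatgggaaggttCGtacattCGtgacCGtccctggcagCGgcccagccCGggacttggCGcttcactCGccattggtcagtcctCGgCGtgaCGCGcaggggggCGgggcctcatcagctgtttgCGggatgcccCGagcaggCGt
BID, chr22:17774470-17774719: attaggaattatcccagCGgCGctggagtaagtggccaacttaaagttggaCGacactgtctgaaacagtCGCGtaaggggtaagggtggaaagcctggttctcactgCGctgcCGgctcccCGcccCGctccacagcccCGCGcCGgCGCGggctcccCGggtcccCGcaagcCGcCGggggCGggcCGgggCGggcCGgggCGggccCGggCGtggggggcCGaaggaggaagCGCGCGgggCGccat
BMF had 26 CG dinucleotides and BID 30, against a median of 11 in 27305 promoters, of which 80.8% had fewer than BMF and 87.8% fewer than BID. Of the other matched members, BCL2L11 had 34, BCL2 24, BCL2L1 and BAD 17 each, BAK1 5 and BCL2A1 2. A high count was therefore not particular to BMF and BID. The letters CGTCA, a half-site of the cAMP response element, were found on either strand in the BMF window and not in the BID window, and in 21.7% of all promoters of this length. BAD, BCL2 and BCL2L1 also held it. TGATGCA, the core of the composite element of ATF4 and CHOP, was in the BCL2A1 window alone among the matched members (2.22% of promoters). TGTTTAC, a forkhead element, was in the BCL2L11 window alone (2.98%), and CACGTG, an E-box, in none (6.49%). Such matches describe letters and not binding.

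Among genes outside the lists, those whose log2 CPM followed BMF most closely over the 9 samples were HGSNAT (Pearson r 0.983), VPS37B (0.981) and RNPEPL1 (0.979). These are descriptions over samples that fall into the same 3 groups. The log2 fold changes of HGSNAT were -0.59 with guide 1 and -0.49 with guide 3, those of VPS37B -0.17 and -0.20, and those of RNPEPL1 -0.29 and -0.32, all smaller than those of BMF.

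Of 13 other BCL2 family genes, 10 passed the filter (BCL2L10, BCL2L14 and BCL2L15 did not). With guide 1, 5 were higher and 1 was lower (15.5% and 15.7% of all genes), and with guide 3, 2 were higher and 2 lower (9.89% and 10.1% of all genes). PMAIP1, which encodes the MCL1-binding BH3-only protein NOXA, was higher with both guides, from 1295 to 1316 normalized counts in sgScr to 1422 to 1557 in the guide samples (log2 fold change 0.22 and 0.20, edgeR adjusted p = 1.43e-05 and 0.000213). BNIP3L, a mitophagy receptor, was lower with both (-0.36 and -0.25, edgeR adjusted p = 1.70e-08 and 2.79e-05). The effector BAX had 1095, 1073 and 1023.5 normalized counts in sgScr, 1225, 1233 and 1221 in sgPHF8-1, and 1027, 1042 and 1009.6 in sgPHF8-3. BAX was therefore high in the guide 1 samples alone, and its effect differed between the guides (log2 fold change of guide 3 over guide 1 -0.26, SE 0.041, edgeR adjusted p = 2.25e-05). With guide 1, BOK (0.28), BCL2L13 (0.22) and HRK (1.18, from 7 to 12 raw counts in sgScr) were also higher. With guide 3, BCL2L13 (0.11) and BNIP3 (-0.15) were called by edgeR at adjusted p = 0.0483 and 0.0393. Both calls were lost when replicate A or C of sgScr or any guide 3 replicate was left out, reaching 0.216 for BCL2L13 and 0.130 for BNIP3. The BNIP3 call was also lost without replicate B of sgScr, and the BCL2L13 call without replicate A of sgPHF8-1. The median log2 fold change of the 10 genes was 0.17 with guide 1 and 0.045 with guide 3.

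All 12 caspase and apoptosome genes were tested. With guide 1, 2 were higher (CYCS and CASP8) and 3 lower (APAF1, CASP9 and ENDOG), with a median log2 fold change of -0.058. That is 41.7% of the list called, against 31.2% of all genes. With guide 3, 1 was higher (CYCS) and 1 lower (CASP2), with a median of -0.056, or 16.7% of the list against 20.0% of all genes. CYCS, cytochrome c, went from 5186 to 5249 normalized counts in sgScr to 5879 to 6496 with guide 1 (log2 fold change 0.24, edgeR adjusted p = 5.56e-08) and 5405 to 5629 with guide 3 (0.090, edgeR adjusted p = 0.0378). APAF1, the scaffold of the apoptosome, had 532 to 570.5 in sgScr, 434 to 464 with guide 1 (log2 fold change -0.31, edgeR adjusted p = 4.23e-05) and 510.5 to 550.4 with guide 3 (-0.063, edgeR adjusted p = 0.477). Of these calls, those of CYCS and APAF1 with guide 1 held with each of the 9 samples left out in turn, and the others were lost without at least 1 sample. The highest edgeR adjusted p was then 0.200 for CASP8 (without replicate C of sgPHF8-1), 0.0626 for CASP9 (without B of sgScr), 0.0541 for ENDOG (without A of sgPHF8-1), 0.130 for CYCS with guide 3 (without A of sgScr) and 0.144 for CASP2 (without B of sgPHF8-3).

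Of the 12 caspase inhibitors and death receptor genes, 6 were higher and 2 lower with guide 1, and 3 were higher and 0 lower with guide 3, with medians of 0.049 and 0.021. The called shares were 66.7% and 25%, against 31.2% and 20.0% of all genes. BIRC2, which encodes cIAP1, was higher with both guides (log2 fold change 0.20 and 0.18, edgeR adjusted p = 5.21e-06 and 6.18e-05), as was BIRC5, survivin (0.081 and 0.14, edgeR adjusted p = 0.0401 and 0.00111). FAS, the death receptor, was higher with both (0.47 and 0.31, edgeR adjusted p = 0.000295 and 0.0275). BIRC3, which encodes cIAP2, fell with guide 1 from 725 to 729 normalized counts to 488 to 496 (log2 fold change -0.56, edgeR adjusted p = 9.74e-12) and was at 703 to 733 with guide 3. Its effect differed between the guides (0.54, edgeR adjusted p = 5.44e-10). With guide 1, BIRC6 (-0.18), TNFRSF10A (0.16), TNFRSF10B (0.17) and XIAP (0.12) were called as well. The calls of BIRC5, TNFRSF10A and XIAP with guide 1 and of FAS with guide 3 were lost without at least 1 sample. Their highest edgeR adjusted p was 0.161 for BIRC5 (without replicate A of sgScr; 0.141 without B of sgPHF8-1), 0.154 for TNFRSF10A (without C of sgPHF8-1), 0.0774 for XIAP (without C of sgPHF8-1) and 0.169 for FAS (without B of sgPHF8-3).

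The 13 transcription factors known to act on BCL2 family genes were all tested. With guide 1, 3 were higher (ATF4, DDIT3 and JUN) and 7 lower, and with guide 3, 2 were higher (ATF4 and DDIT3) and 3 lower (RELA, SMAD3 and STAT3). The called shares were 76.9% and 38.5%, against 31.2% and 20.0% of all genes, and the median log2 fold changes were -0.11 and 0.017. ATF4, the stress-response factor, was higher with both guides (log2 fold change 0.32 and 0.27, edgeR adjusted p = 3.13e-11 and 3.46e-09), and so was its target DDIT3, which encodes CHOP (0.40 and 0.47, edgeR adjusted p = 3.48e-05 and 5.17e-06). SMAD3, a TGF-beta signal carrier, was lower with both (-0.45 and -0.29, edgeR adjusted p = 1.49e-14 and 4.21e-09), as was STAT3 (-0.17 and -0.15, edgeR adjusted p = 0.000126 and 0.00151). RELA was lower with both as well (-0.12 and -0.19, edgeR adjusted p = 0.0308 and 0.00223). SMAD4 (-0.17), FOXO1 (-0.39), E2F1 (-0.11) and NFKB1 (-0.10) were lower with guide 1. The calls of FOXO1, E2F1, NFKB1 and RELA with guide 1 were lost without at least 1 sample. Their highest edgeR adjusted p was 0.138 for FOXO1 (without replicate C of sgScr or A of sgPHF8-1; 0.0628 without B of sgPHF8-1), 0.0691 for E2F1 (without A of sgScr), 0.179 for NFKB1 (without C of sgScr) and 0.149 for RELA (without B of sgScr; 0.114 without B of sgPHF8-1). MITF was not called with either guide (-0.14 and 0.14, edgeR adjusted p = 0.207 and 0.241).

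**Figure D4:**
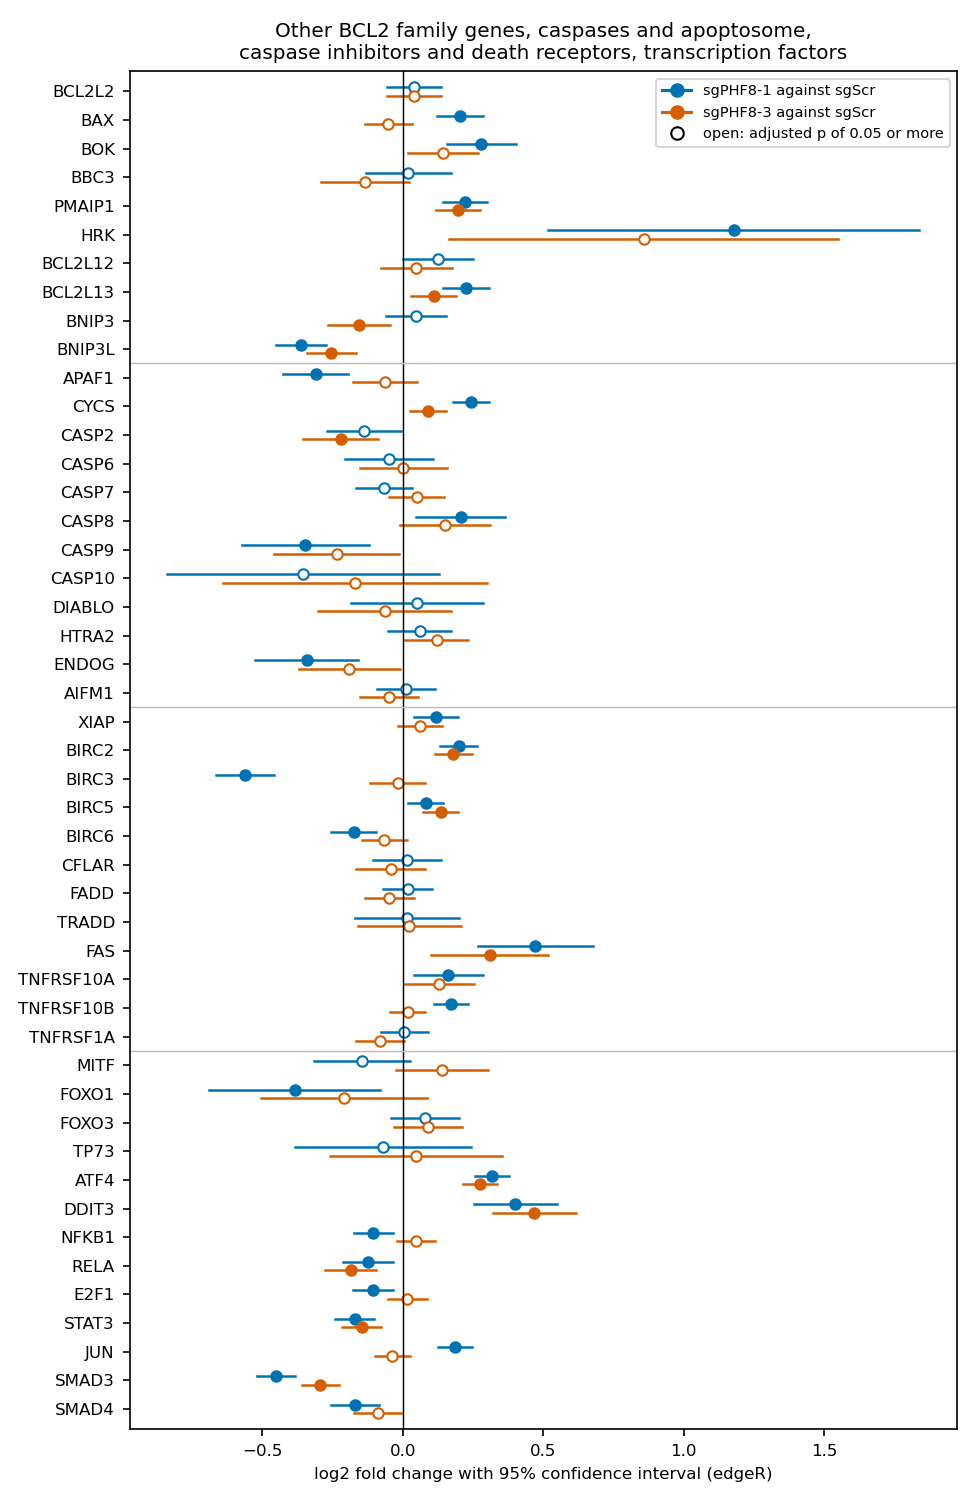
Log2 fold change against sgScr (horizontal axis) with its 95% confidence interval for the tested genes of the 4 pathway lists, divided by grey lines, guide 1 in blue, guide 3 in orange and filled points for an edgeR adjusted p below 0.05. BIRC3 (-0.56 and -0.018) and BAX (0.21 and -0.052) are among the genes where the guides are apart.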

How the data were processed

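Each group had 3 biological replicates, and the libraries were made with the ScriptSeq Complete Gold kit after removal of ribosomal RNA. Per the labels, reads were aligned to hg19 with STAR and counted with HTSeq; the strand setting was not given in the sources used here. The authors deposited raw gene counts and a normalized signal table, in which each count was divided by a DESeq2 size factor; 100% of its values gave whole reads when multiplied back (tolerance 0.01). Raw counts of all 9 samples entered 1 fit of 3 groups with edgeR 4.0.16 (TMM factors, filterByExpr, robust quasi-likelihood test, Benjamini-Hochberg adjustment). Called means an adjusted p under 0.05. The step was tested on simulated counts, and the outcome of that test is not reported here. Alternatives were DESeq2 1.42.0, limma 3.58.1 on log2(normalized count + 1), other factors, no filter, fewer groups, a replicate block, a fold limit of 0.25 (log2) and leaving out each sample. With no filter, BIK had edgeR adjusted p = 0.939 and 0.455 for guides 1 and 3. The text names every member, and genes of the 4 pathway lists where called by either guide or failing the filter. BCL2L2 is named as well, beside the pro-survival sum. Some genes of the lists are not reported here, and list counts leave them out. Members and lists were chosen with earlier results of these data known. Transcript lengths and exons came from GENCODE on hg19. The marker PECAM1 was not matched by symbol.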

Additional observations from a re-analysis of the deposited data

Results flagged for a closer look

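None of the 9 tested members was called between the guides by edgeR's quasi-likelihood test, where 11.2% of all genes were, so a count of 0 among 9 is near that share. Outside the members, 14 genes named here, PHF8 included, were called, and their log2 fold changes of guide 3 over guide 1 were as follows. PHF8 was at -0.48. Among other BCL2 family genes (2 of 10 tested), BAX was at -0.26 and BNIP3 at -0.20. Among caspase and apoptosome genes (2 of 12), APAF1 was at 0.25 and CYCS at -0.15. Among caspase inhibitors and death receptors (2 of 12), BIRC3 was at 0.54 and TNFRSF10B at -0.15. Among transcription factors (5 of 13), MITF was at 0.28, NFKB1 at 0.15, E2F1 at 0.12, JUN at -0.22 and SMAD3 at 0.16. Among markers of undifferentiated melanoma (2 of 5), NGFR was at 0.41 and EGFR at 0.18. The differences of BNIP3, MITF and E2F1 lost their call without at least 1 sample, with edgeR adjusted p of up to 0.0583 (without replicate B of sgPHF8-3), 0.166 (without C of sgPHF8-1) and 0.105 (without B of sgPHF8-3).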

How the results depend on the processing

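The calls of BMF and BID against sgScr held in every alternative run, for each guide and for their mean. Among alternative values of the members, 565 kept direction and call, 8 lost a call, 8 gained one and 18 turned sign. Those that turned were all differences between the guides that edgeR had not called. For BCL2L1 that difference was -0.00011 with DESeq2, -0.00093 with no filter and -0.00018 with limma. With the replicate letter as a block it was -9.64e-05, and with single samples left out it ran from -0.027 to 0.036. Left-out samples gave -0.0038 to 0.15 for BCL2L11, -0.025 to 0.091 for BID, -0.10 to 0.33 for BMF and -0.048 to 0.032 for BAD, and BAD was at 0.0084 with no factors. The cause was not tested. Adding a log2 fold limit of 0.25 left 1814 genes with guide 1, 966 with guide 3, 451 between guides and 1371 for the mean of guides. Of these, 36.0%, 32.6%, 63.2% and 33.3% were higher, against 49.7%, 49.5%, 54.2% and 50.3% without the limit. It left 2 members with guide 1 and 2 for the mean, because BCL2, MCL1 and BAK1 lie under the limit. DESeq2 called 1686 genes with guide 3 (edgeR 2921), 902 between guides (1632) and 2870 for the mean (4389). Leaving out 1 sample gave 1022 to 1611 genes between guides, with 1022 without replicate B and 1054 without replicate C of sgPHF8-3, and 3 to 6 members for the mean of guides. With no factors, 1076 of 1669 genes between guides were higher with guide 3 (64.5%), against 885 of 1632 (54.2%), and 42.3% of those called with guide 1 were higher. Correlations of deviations from the group mean ran from -0.209 to 0.226 between samples with the same replicate letter. Between samples with different letters they ran from -0.286 to 0.38 (sgPHF8-1 B with sgPHF8-3 C and with sgPHF8-3 A). With 3 samples per group these values cannot decide whether the letters pair the samples. The replicate block gave 4456, 2830, 1601 and 4317 called genes in the 4 comparisons and changed no member's call. For other named genes it ended 6 calls, with edgeR adjusted p of 0.0516 for BCL2L13, 0.0505 for BNIP3 and 0.0581 for EGFR with guide 3, 0.0544 for CASP8 and 0.0507 for FOXO1 with guide 1, and 0.0574 for CASP8 in the mean of guides. Alternatives for PHF8 and other genes outside the members were chosen after seeing the data. BIK and BCL2A1, with 1 to 19 raw counts, are limited by depth.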
